A study of Homo sapiens with 3 samples.

Results

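HaCaT cells given all-trans retinoic acid (ATRA, the acid form of vitamin A) were compared with untreated HaCaT cells. HaCaT is an immortalized line of human skin keratinocytes that arose spontaneously in culture, so every sample is the same line. The 2 arrays of this comparison, of 3 arrays in all, were chosen by their labels, Control and ATRA. The Control cells received no agent and the ATRA cells received ATRA at 1 µM for 36 h, both in RPMI-1640 medium with fetal bovine serum. The remaining array, ATRA+NIC, holds cells given ATRA together with nicotinamide, an amide form of vitamin B3, at a dose that the labels do not state. It counts in the filter on low levels, and its levels are set beside those of named genes with no difference given. Each group is 1 array, so no difference below has a test or an error between cultures, and all values describe these arrays.

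Retinoic acid enters the nucleus and binds retinoic acid receptors, which pair with retinoid X receptors on DNA and switch on target genes. Among these targets are the CYP26 enzymes, which break retinoic acid down again. In skin, retinoids are known for changing keratinocyte growth and differentiation, for weakening the barrier of the outer layer, and for causing irritation.

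Intensities were read for 45033 transcripts, of which 42947 carried a gene name and gave 23611 genes. The level of a gene is the mean log2 intensity of its transcripts, and a difference is the ATRA level minus the Control level, so that 1 stands for a 2-fold higher intensity. A gene passed the filter on low levels when it reached an intensity of 246.4, the median of all gene levels, on at least 1 of the 3 arrays, and 12476 genes did. Median transcript intensities ran from 297.9 to 302.3 over the arrays, and probes of random sequence lay at 18.4 to 19.6. Where the dimmer side of a fold lay under an intensity of 50, the fold is given as "at least", with transcript values under 50 set to 50. Of 16 keratinocyte marker genes, 16 passed the filter, 6 of them with a higher and 10 with a lower level on the ATRA array. Melanocyte and fibroblast markers were mostly dim, with 1 of 9 and 3 of 12 past the filter, as were Langerhans cell markers, with 1 of 6.

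Genes typical of blood cells mostly had higher levels on the ATRA array. Among them were globin and immunoglobulin genes, which keratinocytes are not known to express strongly. HBA1, an alpha globin gene, had an intensity of 596 in Control, 4072 in ATRA and 821 in ATRA+NIC cells. HBB, the beta globin gene, had 374, 2550 and 571. The ATRA array alone was high for both genes, by 6.84-fold and 6.82-fold over Control. The immunoglobulin light chain gene IGKC, read by 19 transcripts, had 222, 819 and 99.5, and the platelet chemokine gene PPBP had 55.4, 354 and 67.6. Over 82 measured genes of 5 blood cell lists, 74 were higher in ATRA cells, a share of 90.2% against 47.7% over all 23611 genes. The median difference was 0.94 against −0.03 over all genes. Of the 82, 36 reached 2-fold on the higher side and 0 on the lower, where 4.22% and 3.23% of all measured genes did. These counts include genes below the filter, with values under 50 left as they were. Some of the 36 were dim on both arrays, such as S100A12 (18.1 in Control and 36.2 in ATRA cells). The filter passed 34 of the 82, and 21 of these were at least 2-fold higher, against 3.82% of all genes past it. Summed over the 82 genes, intensity came to 21111 in Control, 46813 in ATRA and 21318 in ATRA+NIC cells. A large part of these sums came from 1 member, LCP1, which was bright on every array (7327, 11555 and 6646).

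The blood cell genes did not all share this pattern. LYZ, the lysozyme gene of myeloid cells, had 117 in Control and 75.3 in ATRA cells, and AHSP, which encodes a chaperone of alpha globin, had 127 and 77.7. PTPRC, which encodes the leukocyte surface protein CD45, had 33.7, 151 and 18.5. Of 16 leukocyte markers in a separate list, 15 were higher, with a median of 0.86, and 6 passed the filter, 4 of them at that level in ATRA but not in Control cells. Their summed intensity was 3027, 5959 and 3302. The 5 blood cell lists were drawn up with the values already known. The part that this signal has in the immune and inflammatory genes described further on was not tested. Blood cells also express many of those genes, among them IL1B, CXCL8, PTGS2, SOCS3 and IL23A.

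**Figure D1:**
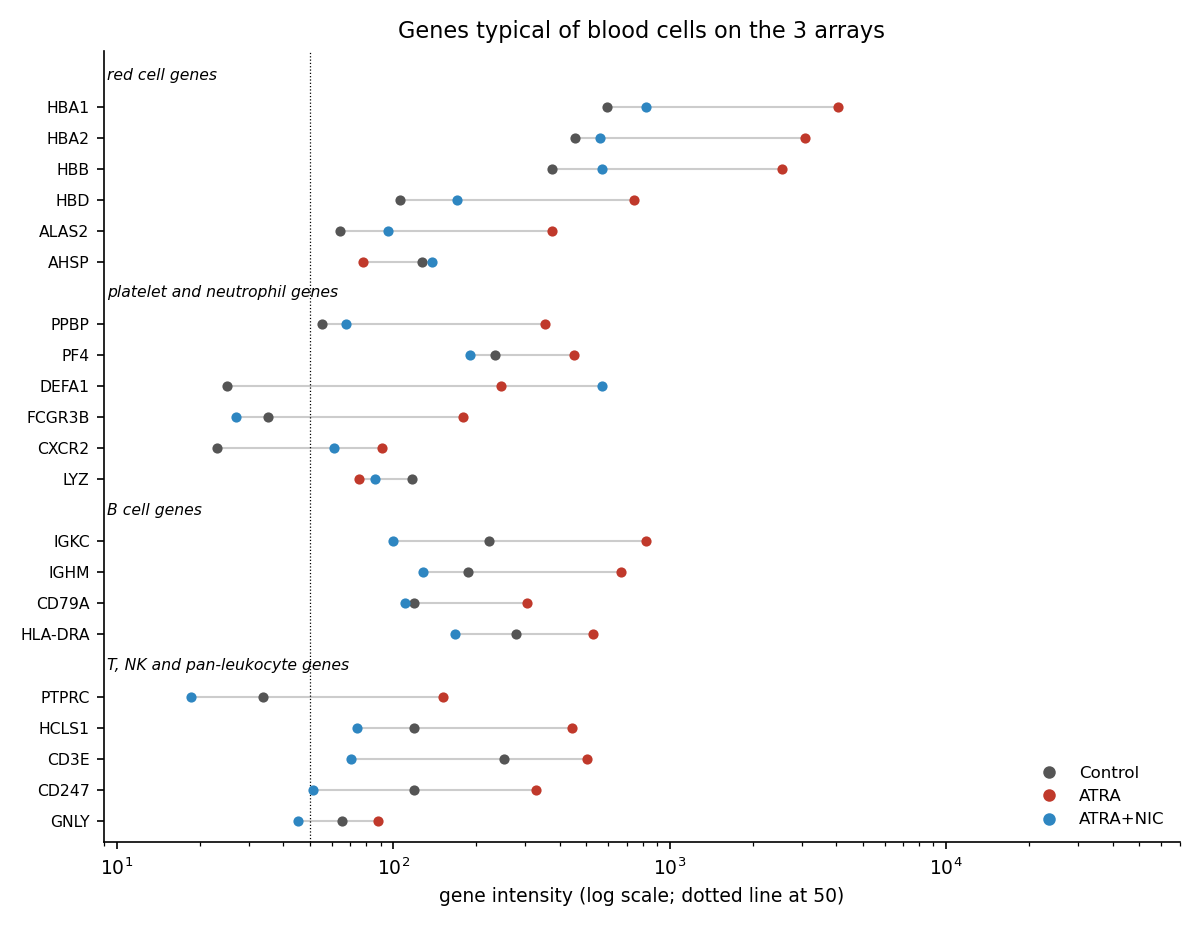
Intensity (log scale) of 21 genes typical of blood cells in Control, ATRA and ATRA+NIC cells, 1 point an array. The globin genes HBA1, HBA2, HBB and HBD lie together and are high on the ATRA array, at 746 to 4072, while AHSP and LYZ are lower there than on the Control array.

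Of the 12476 genes past the filter, 477 (3.82%) were at least 2-fold higher in ATRA cells and 260 (2.08%) lower by that much or more. At 3-fold these numbers were 193 (1.55%) and 58 (0.465%). The comparison had a long upper end, with 104 higher and 19 lower genes at 4-fold. At 10-fold the counts were 22 and 1. The bulk of genes sat close to equality, with a median difference of −0.04 and quartiles of −0.29 and 0.23. Levels were higher in ATRA cells for 45.6% of genes past the filter and for 47.7% of the 23611 measured. These shares, with 3.82% and 2.08% at 2-fold, are the ones to set beside the counts of list members below. Transcripts of 1 gene were read by separate probes, and their differences scattered around the gene's own with a pooled SD of 0.31, a technical spread within these arrays. Among 7074 genes with at least 2 transcripts, every transcript was higher by 2-fold or more for 193 (2.73%) and lower by that much for 44 (0.622%). Of the 281 higher genes with several transcripts, 98.2% had all of them on the same side. These genes were chosen by the mean of the same transcripts, which largely sets that share.

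Higher genes were dimmer in Control cells than lower genes, a contrast that sorting by ATRA minus Control itself favours. Over all genes past the filter the median Control intensity was 1232, above that of both sets. The median intensity of the higher genes was 411 in Control and 1283 in ATRA cells, and 176 of the 477 were below the filter level on the Control array. The lower genes went from 679 to 259, and 126 of the 260 were below that level on the ATRA array. Lower genes carried locus names, which stand for genes without an established symbol, more often. The share was 24.2%, against 2.94% on the higher side and 9.10% over every gene past the filter. A single transcript read 62.3% of the lower genes and 41.1% of the higher genes.

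**Figure D2:**
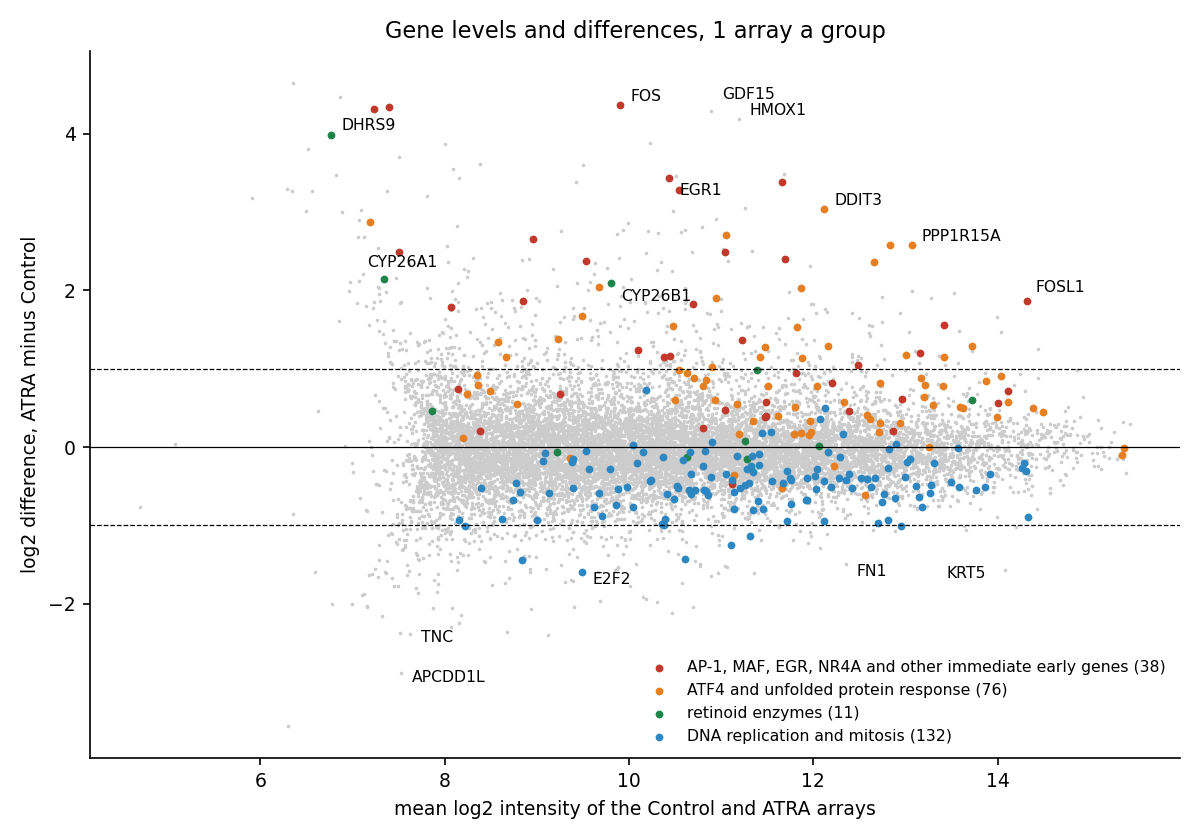
Difference of each of the 12476 genes past the filter (ATRA minus Control, log2) against its mean log2 intensity on both arrays, with members of 4 groups of lists in colour and 2-fold lines dashed. Immediate early genes such as FOS (4.37) and EGR1 (3.43) lie at the top, and replication and mitosis genes form a band below 0.

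The machinery of retinoic acid itself was read first. CYP26A1, an enzyme that breaks retinoic acid down, had 77.3 in Control, 342 in ATRA and 595 in ATRA+NIC cells. CYP26B1, a second enzyme of this kind, had 432, 1851 and 2445. Both genes were low on the Control array and high on both arrays of cells given ATRA, by 4.42-fold and 4.29-fold with ATRA alone. DHRS9, a retinol dehydrogenase that works toward making retinoic acid, had 27.3, 434 and 231, at least 8.68-fold higher than Control.

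Other retinoid enzymes moved less. STRA6, the cell surface receptor for retinol-binding protein, had 1913, 3773 and 3003, just under 2-fold. DHRS3, which reduces retinal back to retinol, had 10958, 16561 and 15008. ALDH1A3, the retinal dehydrogenase with the highest intensity here, had 2619 and 2351 on the Control and ATRA arrays, and its relatives ALDH1A1 and ALDH1A2 were under 50 on both. RDH10 (609 and 582) and RDH11 (4255 and 4301) lay at nearly equal levels. RDH12 (23.2 and 67.2) and CYP26C1 (35.7 and 39.3) were below the filter. Of the 18 measured enzymes 13 were higher in ATRA cells, and the median difference was 0.46. The filter passed 11, of which 3 were at its level in ATRA but not in Control cells, and 3 were at least 2-fold higher. Over the 8 at that level on both arrays the median was 0.05, and 1 was at least 2-fold higher.

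The receptors and binding proteins were at close levels on both arrays. Of 18 measured members 10 were higher, the median difference was 0.01, and 0 of the 12 past the filter reached 2-fold. RARG, the main retinoic acid receptor of epidermis, had 3439 in Control and 4027 in ATRA cells, while RARA had 1601 and 2408. RARB, a classical retinoid target in other cell types, was at 19.3 and 23.6, near the random probes. RXRA had 2209 and 1646. CRABP2, which carries retinoic acid to the nucleus, had 5549 and 6767, and FABP5, another carrier, had 5582 and 4071. NRIP1, a corepressor that retinoids are known to induce, had the largest difference of the list, with 1038 and 1829.

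Genes known to be induced by retinoids in various cells were higher in 24 of 28 measured cases, with a median difference of 0.68, and 7 of the 18 past the filter were at least 2-fold higher. LCN2, an iron-binding antimicrobial protein, had 5948 in Control, 23318 in ATRA and 19231 in ATRA+NIC cells. ICAM1, an adhesion molecule for leukocytes, had 2422, 8224 and 2998, and THBD, which encodes thrombomodulin, had 977, 2088 and 650. LCN2 was thus high on both ATRA-treated arrays and the others on 1 of them. The remaining 4 at 2-fold, ATF3, EGR1, HBEGF and IL1RL1, also belong to the stress and early-response genes described next. TGM2, tissue transglutaminase, was below the filter at 74.9 and 177, and RARRES1 was at 14.1 and 12.1. KRT13 and KRT19, keratins that retinoids are known to favour, were bright on both arrays, at 37759 and 46989 and at 15945 and 19019. Among the 39 HOX genes 18 were higher, with a median of −0.04, and 14 of the 20 past the filter were lower, with a median of −0.27. HOXC8 had 672 and 198, 3.39-fold lower in both of its transcripts.

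Early-response genes encode transcription factors that cells switch on within minutes of a stimulus and usually shut off again within hours. FOS had 211 in Control, 4372 in ATRA and 165 in ATRA+NIC cells. EGR1 had 421, 4547 and 366, and NR4A1, an orphan nuclear receptor, had 478, 4635 and 243. In each case the ATRA array stood alone, by 20.7-fold, 10.8-fold and 9.70-fold over Control, and both transcripts of each gene shared the direction. EGR2 (33.7, 671 and 24.5) and EGR3 (37.3, 760 and 16.3) were under 50 on the other arrays and at least 13.4-fold and at least 14.3-fold higher on the ATRA array.

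Of 17 measured genes of the AP-1 and MAF family, 16 were higher in ATRA cells, and the median difference was 1.17. The filter passed 12, of which 2 were at its level in ATRA but not in Control cells, and 9 were at least 2-fold higher. FOSB had 1002 in Control and 10496 in ATRA cells, JUN had 325 and 1683, and FOSL1, a FOS relative common in keratinocytes, had 10679 and 38988. JUNB, JUND and FOSL2 were 2.29-fold, 2.36-fold and 2.24-fold higher. The small MAF gene MAFF was 5.30-fold higher. On the ATRA+NIC array FOSB had 479, JUN had 107 and FOSL1 had 7953, each below the Control array.

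Of the 30 other immediate early genes, 29 were higher, with a median of 1.10. The filter passed 26, of which 6 were at its level in ATRA but not in Control cells, and 13 reached 2-fold on the higher side and 0 on the lower. Among them were ZFP36, a protein that destroys AU-rich messenger RNAs (889 and 4987), CCN2, a matrix protein also called CTGF (198 and 1250), IER2 (6354 and 18757), NR4A2 (242 and 882) and the antiproliferative genes BTG1 and BTG2 (2.58-fold and 2.22-fold).

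Promoter sequences of 3 early-response genes are shown because each holds a short, known element close to the start of transcription. They were taken from RefSeq on GRCh38.p14, are written 5′ to 3′ on the strand of the gene, and the element is in capitals. EGR1 (chr5:138465354-138465425, plus strand) has a pair of CArG boxes, the site of serum response factor. DUSP1 (chr5:172771281-172771340, minus strand), a phosphatase gene that was 7.52-fold higher, has a cAMP response element. FOS (chr14:75278775-75278827, plus strand) is shown up to the start, with its TATA box in capitals.
EGR1: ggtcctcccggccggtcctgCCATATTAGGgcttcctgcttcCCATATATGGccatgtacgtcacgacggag
DUSP1: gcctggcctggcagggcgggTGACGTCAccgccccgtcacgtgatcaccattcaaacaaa
FOS: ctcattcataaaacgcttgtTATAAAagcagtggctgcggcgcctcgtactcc

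Ligands and feedback inhibitors of EGF receptor signalling, a known inducer of early-response genes, were read next. The EGF family ligands HBEGF, AREG and EREG had 313, 1084 and 236 on the Control array and 4618, 6124 and 1591 on the ATRA array. On the ATRA+NIC array they had 305, 555 and 267, close to or below Control. Of 11 measured ligands 7 were higher, with a median of 0.57, and the 3 named were the ones at 2-fold among 5 past the filter. The receptors and the proteases that release the ligands were at near-equal levels, with 5 of 12 higher, a median of −0.09 and 0 at 2-fold.

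Dual-specificity phosphatases, which switch off MAP kinases, were higher in 10 of 12 cases, with a median of 0.74. All 12 passed the filter and 4 were at least 2-fold higher. DUSP1 had 719 in Control and 5409 in ATRA cells, and DUSP5 had 849 and 7038. DUSP4 and DUSP2 were 3.62-fold and 3.74-fold higher, and DUSP6 had 3316 and 5218. Among Sprouty, SPRED and ERBB feedback genes 8 of 14 were higher, with a median of 0.08. SPRY4 (947 and 4927), ERRFI1 (1784 and 8886) and SPRY2 (404 and 822) were at 2-fold and the other 6 past the filter were not.

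A further set of signal regulators, small GTPases and RGS proteins, held some of the largest differences. RASD1, a steroid-inducible Ras relative read by 1 transcript, had 16.3 in Control and 410 in ATRA cells, at least 8.20-fold higher. RND1, which loosens actin fibres, had 79.6 and 936. RHOB had 711 and 2445, and RGS2, which shortens G protein signals, had 484 and 1988. Of 20 measured members 17 were higher, with a median of 1.14, and 11 of the 13 past the filter were at least 2-fold higher, 5 of the 13 being at the filter level in ATRA but not in Control cells. The transcripts of 2 of these genes did not move alike. Those of RGS3 ran from −0.38 to 2.79 and those of RGS16 from 0.83 to 4.00.

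**Figure D3:**
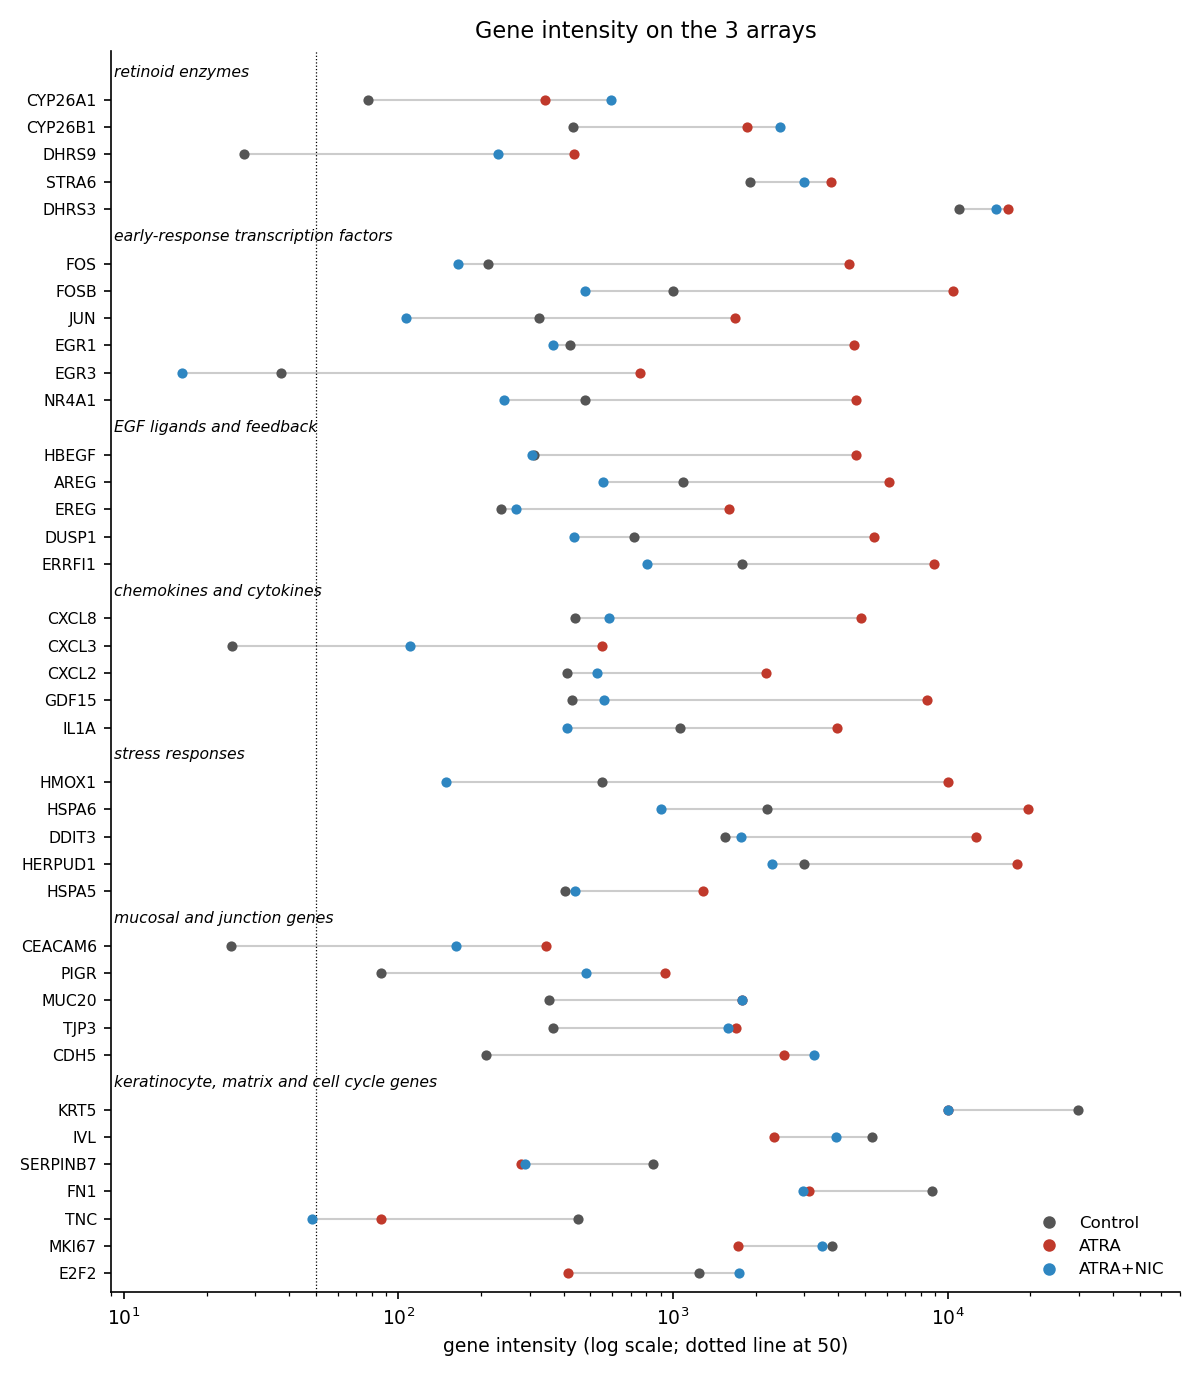
Intensity (log scale) of 38 named genes in Control, ATRA and ATRA+NIC cells, 1 point an array. For early-response, EGF and stress genes the ATRA array stands apart and the ATRA+NIC array lies near or below Control, as for FOS (211, 4372 and 165), whereas MUC20, KRT5 and FN1 have similar levels on both arrays of ATRA-treated cells.

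Inflammatory mediators were high in chosen families. CXC chemokines that attract neutrophils lie next to each other on chromosome 4, and CXCL1 had 657 in Control, 2501 in ATRA and 886 in ATRA+NIC cells. CXCL2 had 411, 2187 and 526, and CXCL8, also known as interleukin 8, had 438, 4837 and 582. CXCL3 had 24.8, 550 and 111, at least 11-fold higher than Control. Of 16 measured CXC chemokines 10 were higher, with a median of 0.78. The filter passed 7, of which 3 were at its level in ATRA but not in Control cells, and 5 were at least 2-fold higher. The fifth of these, PPBP, is a platelet gene and is also in the blood cell lists. CXCL10, an interferon-induced chemokine, was under 50 on both arrays.

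The promoters of CXCL1, CXCL2 and CXCL3 share the same element for NF-κB, a transcription factor of inflammation. They are shown because these 3 neighbouring genes were higher together, with the stretch around the element printed and its letters in capitals. The positions on GRCh38.p14 are chr4:73869294-73869353 on the plus strand for CXCL1, chr4:74099234-74099293 on the minus strand for CXCL2 and chr4:74038729-74038788 on the minus strand for CXCL3. Over the 100 bases before the start, CXCL1 and CXCL3 had 90 identical bases without gaps, CXCL1 and CXCL2 had 73, and CXCL2 and CXCL3 had 67. CXCL8 (chr4:73740412-73740471, plus strand) is shown with its AP-1 site in capitals, the element bound by FOS and JUN proteins.
CXCL1: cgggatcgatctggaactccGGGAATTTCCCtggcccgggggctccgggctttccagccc
CXCL2: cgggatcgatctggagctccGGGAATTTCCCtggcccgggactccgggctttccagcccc
CXCL3: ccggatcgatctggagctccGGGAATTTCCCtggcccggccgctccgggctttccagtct
CXCL8: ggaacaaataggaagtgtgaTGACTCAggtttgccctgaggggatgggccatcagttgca

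CC chemokines were mostly dim, with 4 of 19 past the filter. CCL3, which leukocytes also make, had 491 in Control and 996 in ATRA cells. CCL20, a chemokine of stimulated keratinocytes, was below the filter at 26.5 and 65.0. In the interleukin 1 family 14 of 20 members were higher, with a median of 0.27, and 3 of the 8 past the filter were at least 2-fold higher. The filter level was reached on both arrays by 7, of which 2 were at least 2-fold higher. IL1A, stored in keratinocytes as an alarm signal, had 1062 and 3952, and IL1B had 3770 and 8000. IL1RL1, the receptor for interleukin 33, had 67.2, 982 and 51.9 on the 3 arrays, 14.6-fold higher than Control, with its 3 transcripts between 2.87 and 4.67. The receptor antagonist IL1RN had 578, 1100 and 1045.

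Among genes of the interleukin 6 family and its SOCS inhibitors 15 of 21 were higher, with a median of 0.42, and 6 of the 14 past the filter were at least 2-fold higher. The filter level was reached on both arrays by 11, of which 4 were at least 2-fold higher, and SOCS1 and SOCS3 were below it in Control cells. LIF had 2167 in Control and 7713 in ATRA cells, and SOCS3, which stops signals of this family, had 210 and 1109. SOCS1 had 48.0 and 389, at least 7.79-fold. The kinase genes PIM1 and PIM3 were 2.67-fold and 3.13-fold higher. GDF15, a secreted stress hormone, was the most different cytokine, with 430, 8404 and 562 on the 3 arrays and both transcripts between 4.24 and 4.34. VEGFA, the growth factor for vessels, had 3014 and 9905, and IL23A had 79.5 and 287. IL32 and LTB, which lymphocytes also express, were 2.41-fold and 2.45-fold higher. Of 31 such cytokines 22 were higher, with a median of 0.42.

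NF-κB subunits and the inhibitors that they induce were higher in 24 of 26 cases, with a median of 0.56. Of the 22 past the filter, 6 were at least 2-fold higher. BIRC3, an inhibitor of cell death, had 651 and 3081, NFKBIZ had 608 and 1858, and TNFAIP3, which dampens NF-κB, had 599 and 1727. RELB, NFKB2 and ZC3H12A lay between 2.11-fold and 2.22-fold. TNFAIP2 was one of the brightest genes of the list, with 21052 in Control, 41846 in ATRA and 38309 in ATRA+NIC cells. PTGS2, the inducible cyclooxygenase, had 107, 636 and 61.2, at least 5.46-fold higher, and PTGER4, a prostaglandin receptor gene, was 3.70-fold higher. ALOX5, a leukotriene enzyme abundant in leukocytes, had 135, 653 and 612. Of 52 measured interferon-stimulated genes 39 were higher, with a median of 0.31, but GBP1 (405 and 882) was the single one at 2-fold among 46 past the filter.

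Stress programs of protein folding were higher nearly throughout. In the unfolded protein response, chaperones and degradation factors of the endoplasmic reticulum are made when proteins misfold there. All 37 measured members were higher in ATRA cells, and the median was 0.79, and 11 of the 34 past the filter were at least 2-fold higher. On both arrays 31 were at the filter level, and 9 of these were at least 2-fold higher. HSPA5, the chaperone BiP, had 404 in Control, 1283 in ATRA and 439 in ATRA+NIC cells. HERPUD1, which helps to degrade misfolded proteins, had 2993, 17877 and 2293, and SDF2L1 had 1843, 7543 and 2200. DNAJB9, a cofactor of BiP, had 54.1, 395 and 51.2, at least 6.39-fold higher. XBP1 and the stress sensor ERN1, which splices its messenger RNA, were 2.25-fold and 2.61-fold higher.

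The related ATF4 response raises amino acid supply and, when it lasts, death signals. Here 38 of 46 members were higher, with a median of 0.62, and 12 of the 42 past the filter were at least 2-fold higher. DDIT3, also called CHOP, had 1549 in Control, 12716 in ATRA and 1762 in ATRA+NIC cells. PPP1R15A, which restarts protein synthesis, had 3513, 20919 and 2785, and TRIB3 had 828, 5426 and 917. For these genes the levels on the Control and ATRA+NIC arrays were close and the ATRA array was several-fold higher. ASNS, asparagine synthetase, was 2.19-fold higher, CHAC1 5.15-fold, CTH 4.12-fold and EIF2AK3, the sensor kinase PERK, 2.92-fold.

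Heat shock chaperones of the cytosol were higher in 28 of 34 cases, with a median of 0.39, and 6 of the 30 past the filter were at least 2-fold higher. HSPA6, a strictly stress-induced HSP70, had 2190, 19615 and 902 on the 3 arrays. DNAJB1, its cofactor, had 9164, 29088 and 10197. HSPA1A had 14403, 34356 and 14035, although its symbol is uncertain because near-identical HSP70 genes can share probes. DNAJA4, DNAJB4 and HSPH1 were 4.79-fold, 4.86-fold and 2.12-fold higher.

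The promoters of 3 stress genes are shown because each carries an element of a stress program at a short distance from the start, in capitals. HSPA5 (chr9:125241370-125241429, minus strand) holds an ER stress element, HSPA6 (chr1:161524446-161524505, plus strand) a heat shock element, and HERPUD1 (chr16:56931946-56932005, plus strand) an amino acid response element, here in reverse orientation.
HSPA5: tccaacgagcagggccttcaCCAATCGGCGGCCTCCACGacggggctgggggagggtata
HSPA6: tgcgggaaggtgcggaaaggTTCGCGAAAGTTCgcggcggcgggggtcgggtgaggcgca
HERPUD1: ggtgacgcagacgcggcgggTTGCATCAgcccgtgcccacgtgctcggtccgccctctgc

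Oxidative stress genes did not move as a group. Of 46 NRF2 targets and antioxidant enzymes 25 were higher, with a median of 0.02, and 8 of the 39 past the filter were at least 2-fold higher. OSGIN1, an oxidative stress-induced growth inhibitor, had 668 and 4673. TXNRD1, thioredoxin reductase, had 2901 and 7113, and SQSTM1, an autophagy receptor, had 8836 and 20745. HMOX1, which breaks down heme, was among the most different genes of the comparison, with 551 in Control, 10040 in ATRA and 149 in ATRA+NIC cells. Its transcripts differed by 3.94 and 4.44. Over the whole list of heme and iron genes 12 of 28 were higher, with a median of −0.14. Metallothioneins, metal-binding proteins that many stresses induce, were lower in 12 of 15 cases, with a median of −0.30 and 0 at 2-fold among 11 past the filter.

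**Figure D4:**
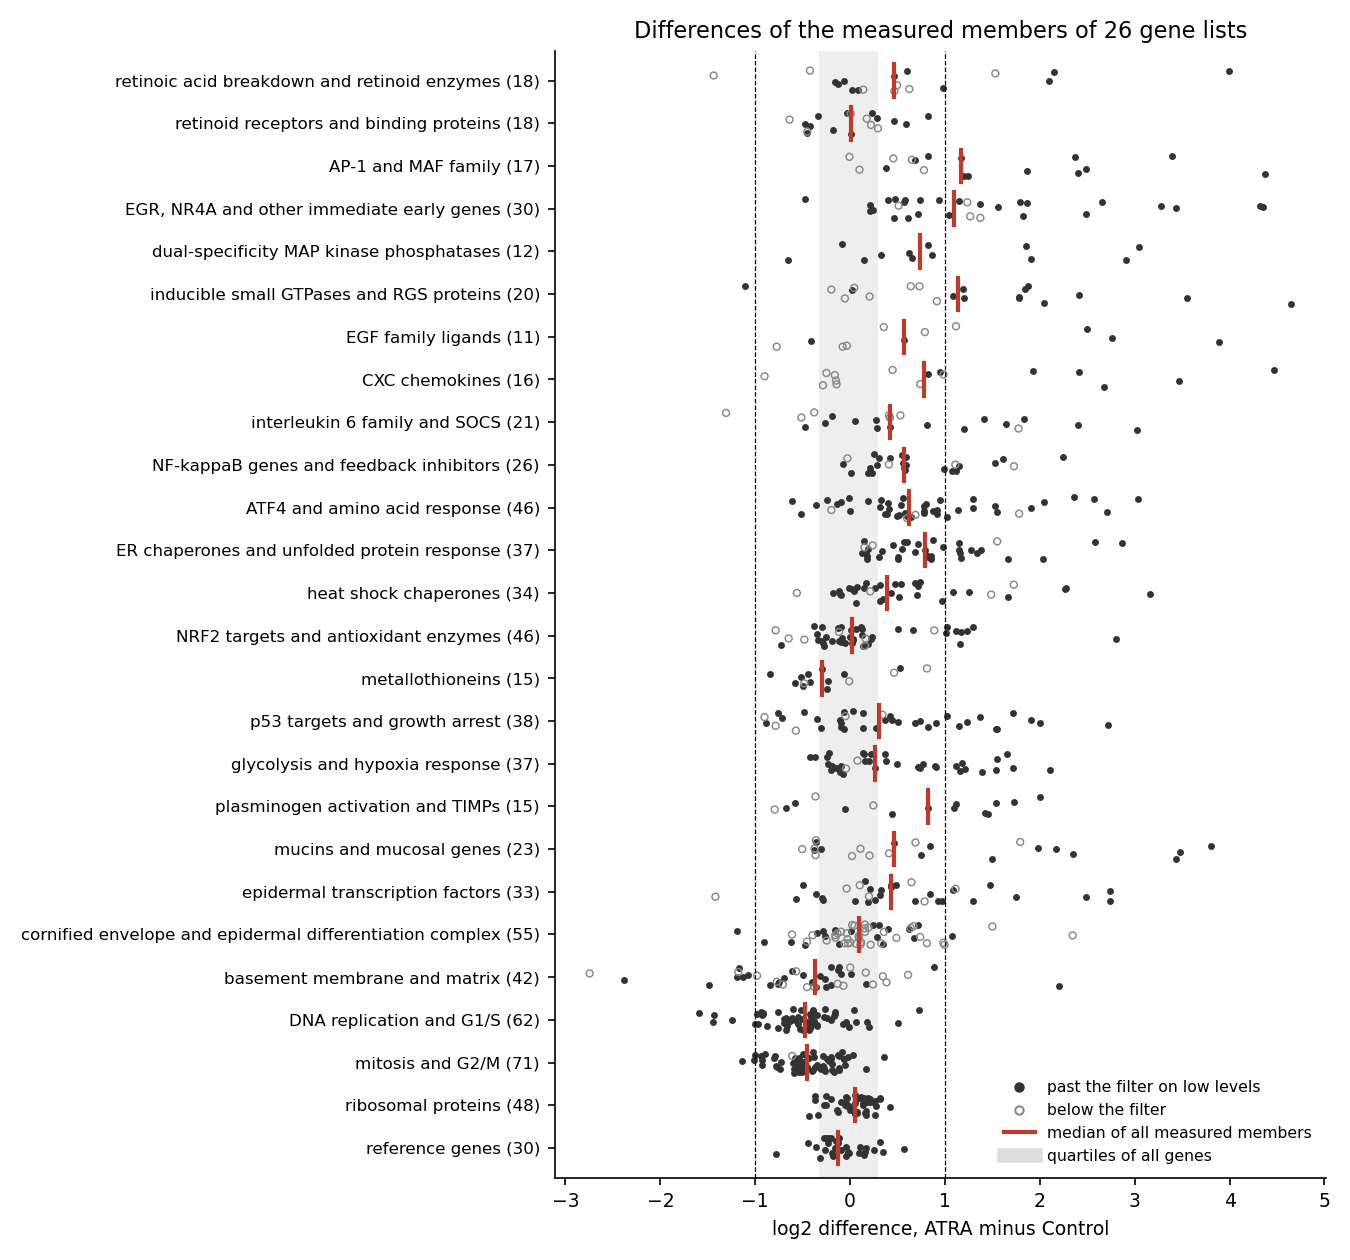
Difference (ATRA minus Control, log2) of the measured members of 26 gene lists, with members past and below the filter, the median of all measured members in red and the quartiles of all genes shaded. The ER chaperone list lies wholly above 0 with a median of 0.79, while replication (−0.48) and mitosis genes (−0.46) lie mostly below it.

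Growth arrest genes were higher and cell cycle genes lower. CDKN1A, the p53 target that halts the cycle, had 4343 in Control, 14255 in ATRA and 3250 in ATRA+NIC cells. GADD45B had 365 and 2398, GADD45A had 2558 and 6602, and the death genes BBC3 and PMAIP1 had 376 and 1506 and 1644 and 4763. Of 38 measured p53 targets and arrest genes 23 were higher, with a median of 0.31, and 10 of the 33 past the filter reached 2-fold on the higher side and 0 on the lower. In the BCL2 family 16 of 21 were higher, with a median of 0.27.

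Among 62 genes of DNA replication and the G1/S step, 56 were lower in ATRA cells, and the median was −0.48. All 62 passed the filter, and 5 reached 2-fold on the lower side and 0 on the higher. E2F2, a transcription factor of S phase, had 1247 in Control, 415 in ATRA and 1744 in ATRA+NIC cells. CLSPN, a replication checkpoint protein, had 2574, 952 and 2200, and PCNA had 9858, 5194 and 12801. The mitosis list was alike, with 68 of 71 lower and a median of −0.46, and 2 of the 70 past the filter at 2-fold. MKI67, the proliferation marker Ki-67, had 3782, 1718 and 3487. KIF18B, a mitotic kinesin outside both lists, had 3572, 1245 and 3415. Individual differences in these lists were small and mostly under 2-fold. Replication-dependent histone genes lay near equality, with 30 of 58 higher and a median of 0.02. Of the 50 past the filter 25 were higher and 25 lower, with a median of −0.04 that was −0.27 with the authors' value table, and H2BC11 and H2BC12 were at least 2-fold lower. Ribosomal protein genes (30 of 48 higher, median 0.06) and reference genes (9 of 30 higher, median −0.12) had 0 members at 2-fold.

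Genes of the hypoxia response and glycolysis were higher in 25 of 37 cases, with a median of 0.26, and 10 of the 35 past the filter reached 2-fold on the higher side and 0 on the lower. CA9, a carbonic anhydrase induced by low oxygen, had 1905 in Control, 5975 in ATRA and 1010 in ATRA+NIC cells. ADM, which encodes adrenomedullin, had 3704, 10866 and 3137, and NDRG1 had 7059, 15746 and 2305. ANGPTL4 was 4.30-fold and KDM3A 2.90-fold higher. The respiratory chain lay slightly below equality, with 60 of 75 members lower and a median of −0.20. Clock genes had a median of 0.32 over 20 members, and the clock repressor NR1D1 had 1167 and 2457.

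Proteases and their inhibitors at the cell surface differed on both sides. In the plasminogen system, which dissolves fibrin and matrix, 10 of 15 genes were higher, with a median of 0.82, and 7 of the 12 past the filter were at least 2-fold higher. PLAU, urokinase, had 4308 in Control, 17198 in ATRA and 5339 in ATRA+NIC cells, and its receptor PLAUR had 1462, 4249 and 1502. TIMP3, an inhibitor of metalloproteinases, had 3835, 10242 and 8944. Among metalloproteinases, MMP7 (493, 2758 and 1727) and MMP13 (783, 1912 and 1134) were higher and the gelatinase MMP2 (1595, 555 and 550) was lower. The kallikreins, which cut the links between shedding skin cells, were higher in 16 of 21 cases, with a median of 0.24. KLK6 had 3527, 13359 and 11883, and its 4 transcripts lay between 1.56 and 2.23. KLK10 (2.11-fold), KLK11 (2.44-fold) and KLK13 (3.34-fold) lie close together on chromosome 19, from 56209337 to 56260179 in the hg18 annotation of the files. KLK14 was 2.08-fold lower. Serpin SERPINB7, a protease inhibitor of the epidermis, had 842, 280 and 289.

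Most matrix genes were lower. Of 42 basement membrane and matrix genes 32 were lower, with a median of −0.37. Of the 26 past the filter, 6 were at least 2-fold lower and 1 higher. The filter level was reached on both arrays by 22, of which 4 were at least 2-fold lower and 0 higher. FN1, fibronectin, had 8789 in Control, 3131 in ATRA and 2973 in ATRA+NIC cells, and its 5 transcripts lay between −1.92 and −0.86. TNC, tenascin C, had 451, 86.7 and 48.5, at least 3.19-fold lower. COL4A1 and COL7A1, collagens of the basement membrane and its anchoring fibrils, were 2.28-fold and 2.19-fold lower, NID2 2.25-fold and THBS1 2.11-fold. SPARC stood opposite, with 64.8, 298 and 60.8, at least 3.38-fold higher. The integrin gene ITGB6 had 1895, 843 and 854, while 10 of 18 integrins were higher, with a median of 0.0054, and 8 of the 13 past the filter were lower, with a median of −0.24.

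Keratins and cornified envelope genes, the products of epidermal differentiation, differed gene by gene. KRT5, the keratin of basal keratinocytes, had 29746 in Control, 10041 in ATRA and 10009 in ATRA+NIC cells, lower by 1.15 and 1.98 in its transcripts. KRT15, another basal keratin, had 7687, 15893 and 16281. These 2 basal keratins thus stood on opposite sides, each with like levels on both arrays of treated cells. The wound keratin KRT17 was 2.02-fold higher, and KRT6C was 2.15-fold lower, a symbol that is uncertain because KRT6A, KRT6B and KRT6C are near-identical. Over 19 epidermal keratins the median was 0.07, but it turned to −0.47 with the authors' value table and to −0.80 with the 75th percentile as filter. IVL, involucrin of the cornified envelope, had 5316, 2329 and 3922. FLG, filaggrin, had 421, 224 and 430, and LCE1D had 164, 344 and 263. Of the 55 genes of the epidermal differentiation complex and its enzymes, 34 were higher, with a median of 0.09, and 18 were under 50 on both arrays. That median turned to −0.14 with the authors' value table and to −0.22 with the 75th percentile as filter.

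Transcription factors that steer epidermal differentiation were higher in 26 of 33 cases, with a median of 0.43, and 7 of the 26 past the filter were at least 2-fold higher. On both arrays 23 were at the filter level, and 5 of these were at least 2-fold higher. KLF4, a factor of barrier formation, had 585 in Control, 3922 in ATRA and 965 in ATRA+NIC cells. OVOL1 had 495, 3296 and 786, GRHL1 had 146, 492 and 225, and ELF3 had 10090, 28018 and 23613. CEBPA and CEBPB were 2.12-fold and 2.46-fold higher. ID2, which blocks differentiation factors of another class, had 693, 3900 and 1165. In the Notch pathway 14 of 24 were higher, with a median of 0.18, but LFNG (399, 110 and 378) and HES2 (689, 302 and 372) were at least 2-fold lower. APCDD1L, related to a WNT inhibitor, had 503, 67.9 and 147 and was at least 5.63-fold lower, while the WNT list as a whole had a median of −0.08.

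Genes typical of mucosal and glandular epithelia were among the most different. CEACAM6, a surface glycoprotein of gut epithelium and neutrophils, had 24.6 in Control, 344 in ATRA and 162 in ATRA+NIC cells, at least 6.35-fold higher. CEACAM5 had 33.9, 378 and 123, at least 6.78-fold, and CEACAM1, read by 4 transcripts, had 142, 642 and 464. CEACAM4, CEACAM5, CEACAM6 and CEACAM3 form a run of higher genes on chromosome 19 from 46817183 to 47007431 (hg18), and since CEACAM genes are similar in sequence and CEACAM3 is a neutrophil gene, their symbols are uncertain. PIGR, which carries immunoglobulin A across epithelia, had 86.4, 936 and 483. The membrane mucins MUC20 and MUC13 had 352, 1789 and 1789 and 83.1, 327 and 184, and S100P had 50.5, 658 and 237. Of 23 measured mucosal genes 16 were higher, with a median of 0.46. The filter passed 13, of which 6 were at its level in ATRA but not in Control cells, and 7 were at least 2-fold higher. Over the 7 at that level on both arrays the median was 0.46, and 1 was at least 2-fold higher.

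Junction genes held a few large differences in lists with medians near 0. TJP3, a scaffold protein of tight junctions, had 366 in Control, 1694 in ATRA and 1589 in ATRA+NIC cells, and OCLN, occludin, had 357, 858 and 466. The tight junction list of 41 had a median of 0.05, and 3 of the 20 past the filter were at least 2-fold higher. CDH5, the cadherin of blood vessels, had 209, 2534 and 3263, and its 3 transcripts lay between 3.09 and 4.49. No other of the 12 endothelial markers passed the filter, and PECAM1, which defines that cell type, was under 50 on both arrays. HAS2, which makes hyaluronan, had 823, 2940 and 915, and FA2H, which hydroxylates barrier lipids, had 87.2, 441 and 241. Lists of cholesterol synthesis (median −0.05) and sphingolipids (0.12) lay near equality. Of genes of nicotinamide and NAD metabolism, NAMPT had 3173 and 6194, and IDO2, read by 1 transcript, had 271 and 23.0, at least 5.42-fold lower.

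Of 26 complement genes 17 were higher, with a median of 0.40, and 4 of the 11 past the filter were at least 2-fold higher. Of 23 antimicrobial genes 15 were higher, with a median of 0.41, and 4 of the 8 past the filter reached 2-fold. On both arrays 7 of the antimicrobial genes were at the filter level, and 3 of these reached 2-fold. Over all genes, 47.7% of those measured were higher, and 3.82% of those past the filter reached 2-fold on that side. The complement gene C3 had 2317 in Control, 7566 in ATRA and 4975 in ATRA+NIC cells, and CFB had 589, 1490 and 1174. CD55, which protects cells from complement, had 844, 2868 and 476. UBD, a ubiquitin-like protein induced by cytokines, had 500.2, 4059 and 2737. DEFA1, a neutrophil defensin gene and a member of the blood cell lists, had 25.1, 246 and 569, and S100A9, also abundant in neutrophils, had 376, 812 and 397.

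Runs of higher or lower genes were read along each chromosome among genes past the filter, within 100 kb of each other in the hg18 annotation. Genes below the filter were skipped, so members of a run need not adjoin. There were 24 runs on the higher side with 53 genes and 14 runs on the lower side with 35 genes. Higher runs included IL1A with IL1B on chromosome 2, PPBP with CXCL3 and CXCL2 and, apart from these, EREG with AREG on chromosome 4, and the globin pairs HBB with HBD and HBA2 with HBA1. The longest run, of 6 genes, was on the lower side on chromosome 5 from 68971045 to 70187630 and held GUSBP14, GUSBP18 and 4 locus names. That stretch is rich in duplicated sequence, so its members may share probes. KRT6C and KRT5 formed a lower pair on chromosome 12.

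Short promoter elements were counted from 250 bases before to 50 bases after the start, for the 8681 of 12476 genes past the filter that RefSeq's promoter table on GRCh38.p14 holds, among them 346 higher and 132 lower genes. A TATA box, TATAAA between 40 and 19 bases before the start on the strand of the gene, was in 10.98% of higher, 15.1% of at least 3-fold higher, 3.79% of lower and 2.19% of all promoters. The AP-1 site TGACTCA was in 7.23% of higher, 10.8% of at least 3-fold higher, 6.06% of lower and 3.13% of all. NF-κB sites were in 10.4%, 14.4%, 7.58% and 6.81% in the same order, and the amino acid response element TGATGNAA in 3.76%, 5.04%, 2.27% and 1.66%. All but the TATA box were searched on both strands. For these 4 elements the shares were thus above those of all promoters on both sides, and larger among higher than among lower genes. For the AP-1 site the 2 sides were close, at 7.23% and 6.06%. The lower shares rest on 5, 8, 10 and 3 promoters, in the order of the elements above.

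Rarer elements gave small numbers. The ER stress element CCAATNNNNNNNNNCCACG was in 4 higher promoters, those of HSPA5, XBP1, CRELD2 and FICD, of 13 among all. The heat shock element GAANNTTCNNGAA was in 3 higher promoters of 25 among all, and CArG boxes were in 2.60% of higher, 2.16% of at least 3-fold higher, 2.27% of lower and 1.17% of all. The antioxidant response element TGACNNNGC, which can overlap an AP-1 site, was in 14.2% of higher and 15.6% of all promoters, and the cAMP response element TGACGTCA in 4.62% and 3.46%. The retinoic acid response elements with a spacing of 5 and of 2 bases were in 1 and 3 higher promoters, 0 and 1 lower promoters, and 17 (0.196%) and 14 (0.161%) of all. DHRS9 (chr2:169067025-169067076, plus strand), the retinoid enzyme gene with the largest difference, is shown up to the start, with its TATA box in capitals.
DHRS9: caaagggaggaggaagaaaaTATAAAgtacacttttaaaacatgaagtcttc

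**Figure D5:**
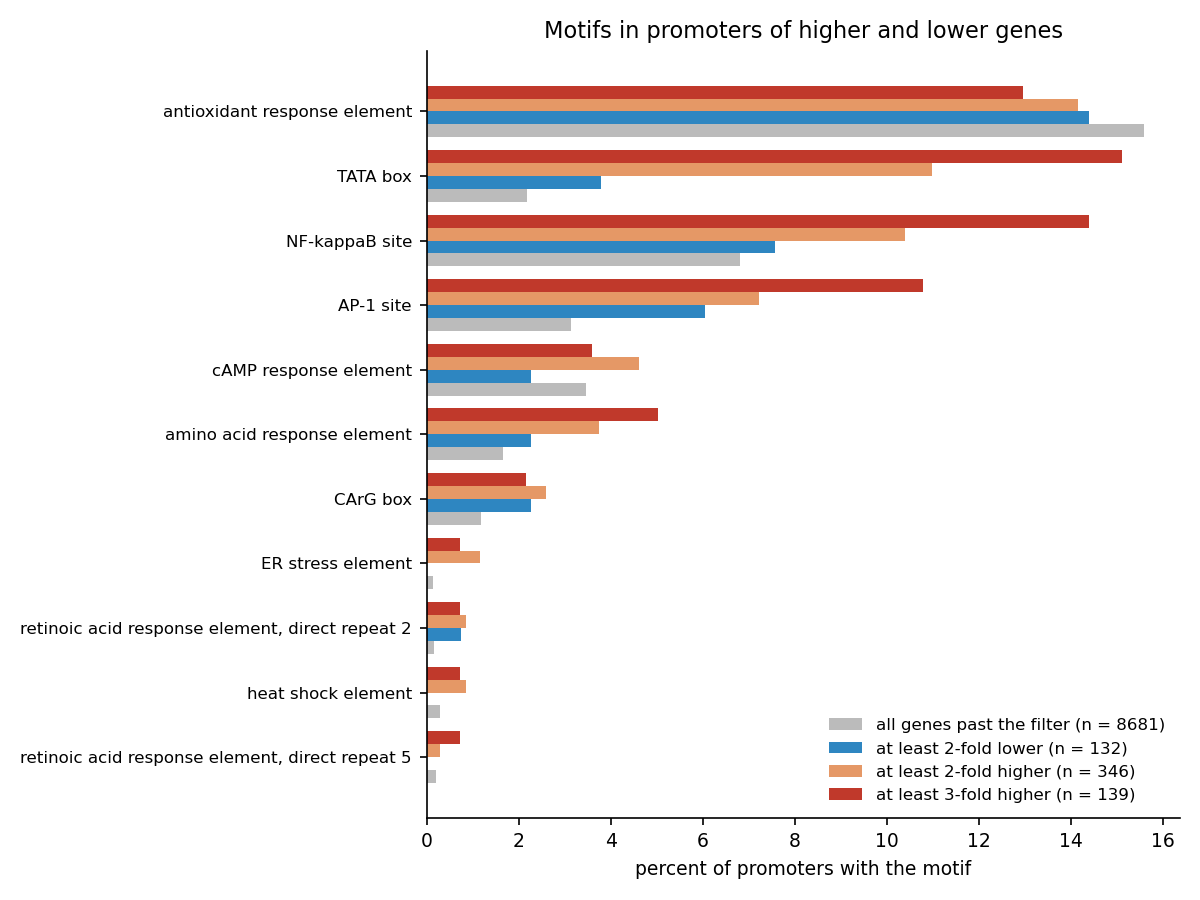
Percent of promoters that hold each of 11 short elements, for genes at least 3-fold higher, at least 2-fold higher, at least 2-fold lower and all genes past the filter. The TATA box has the widest spread, at 15.1%, 10.98%, 3.79% and 2.19%, while the antioxidant response element lies between 12.9% and 15.6% in all 4 sets.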

How the data were processed

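Cy3-labelled cDNA of HaCaT cells was hybridised to single-colour NimbleGen arrays, 1 array a group. The authors deposited RMA gene calls, which per the file headers are intensity values on a linear scale, background-corrected, normalized across arrays and summarised over 3 probes a transcript. The labels and headers name no software or version. RMA can compress differences near background, and the number of arrays limits the precision.

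Intensities were taken as log2 without further scaling and averaged over the transcripts of a gene name (pandas 2.3.3, numpy 2.4.6). Transcripts without a name and random probes were left out. RefSeq's gene table of GRCh38.p14 gave current symbols for 20230 of 23619 Entrez numbers. The rule of size was 2-fold, with 3-fold beside it. A run on simulated data planted 4-fold changes in genes past the filter level on the Control array. Its scatter was smaller than that of these arrays, so it cannot show how well calls near 2-fold hold. The authors' value table held the same intensities for the 31275 transcripts at 50 or more on all arrays.

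Genes were named by rule: the 30 highest and 20 lowest with several transcripts in 1 direction and not named for a locus, clone or reading frame, list members at 2-fold, the 3 largest of each list, retinoid and marker genes, genes in runs and the brightest genes. Other list members are given as context. There were 59 pathway and 6 marker lists with 1735 measured genes. The members and lists were chosen with earlier results of these data known. Filters, offset, floor, scaling, transcript summary, gene grouping and the source of values were varied. Some genes are not reported here.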

Additional observations from a re-analysis of the deposited data

Results flagged for a closer look

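Transcripts to which the files give no gene name took no part in the comparison, and some of them differed between the arrays. Of 816 such transcripts past the filter level, 27 were at least 2-fold higher on the ATRA array, a share of 3.31%, and 76 were at least 2-fold lower, a share of 9.31%. Among 24340 named transcripts the shares were 4.36% and 2.38%. This signal lies outside the genes reported on, which is why it is listed here.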

How the results depend on the processing

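With 1 array a group there was no replicate to leave out. No paired analysis was possible because the groups hold 1 array each and the labels give no replicate numbers. The counts rested on the treatment of dim genes. With no filter, 997 higher and 763 lower genes reached 2-fold, 298 and 151 reached 3-fold, and 76 had every transcript at least 2-fold lower. With the 75th percentile as filter these were 234, 76, 97 and 15, with 109 higher and 12 lower in every transcript. A filter on the mean of both arrays left 29 genes at least 3-fold lower. An offset of 100 gave 133 lower genes, 122 and 17 at 3-fold, and 17 lower in every transcript. The authors' value table gave 127 lower, 27 at 3-fold and 24 in every transcript, which holds the transcripts at 50 or more on all arrays. Setting values under 50 to 50, both scalings, grouping by current symbol, the median transcript and the brightest transcript kept each count they could give within 1.5 times. With the brightest transcript CCL4L1 turned to −0.10 from 1.25, and with no filter the integrin median turned to 0.0054 from −0.24. Of 310 named genes at 2-fold, 272 stayed so with the brightest transcript, 238 with the offset and 299 with the floor. Probes near the random level limit every fold that starts under 50.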

Other observations

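Of the 477 higher and 260 lower genes, 264 and 230 stood in none of the lists. The genes named in this paragraph were picked from them after their values were seen. FOXA1, a transcription factor, had an intensity of 759 in Control, 2524 in ATRA and 1681 in ATRA+NIC cells, and GATA2, a factor also of blood-forming cells, had 645, 2125 and 1223. TRIM31, a ubiquitin ligase gene read by 1 transcript, had 983, 10983 and 18774. GCNT3, which builds mucin sugar chains, had 74.0, 680 and 178, and the fucosyltransferase genes FUT3 and FUT6, neighbours on chromosome 19, were 3.44-fold and 3.09-fold higher. The surface serine proteases TMPRSS4 (821, 3002 and 2757) and PRSS22 (2141, 7609 and 4272) were higher too. IGFBP3, which binds insulin-like growth factors, had 5140, 19205 and 10661.

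Other higher genes had ATRA+NIC levels near or below Control. SNAI1, a repressor of epithelial cadherin, had 212, 2214 and 147, MXD1, an antagonist of growth-promoting factors, had 391, 1916 and 219.8, and TRIB1 had 494, 2185 and 520.1. On the lower side CPA4, a carboxypeptidase, had 2936, 678 and 1496, FGFBP1, a carrier of fibroblast growth factors, had 2935, 1045 and 1360, and OLFM4, a glycoprotein of gut epithelium and neutrophils, had 4558, 1498 and 1192. PRSS23, a serine protease, had 1195, 368 and 442, and LALBA, which encodes a milk protein, had 1276, 242 and 974.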
